A study of Mus musculus with 4 samples.

Results

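Telencephalic-type astrocytes were taken here as astrocytes that carried more of a forebrain gene set than of a gene set of other brain regions, and 907 such cells were found among the 10067 cells that passed the filters in 4 libraries. The selection used detected genes, where 1 unique molecular identifier (UMI, a tag that marks a single captured RNA molecule) counted as detection. A cell needed at least 3 of the 7 astrocyte genes Aqp4, Gja1, Slc1a2, Ntsr2, Atp1b2, Slc4a4 and Gjb6, at most 1 of the 5 endothelial, oligodendrocyte and microglial genes Cldn5, Flt1, Mog, Tmem119 and P2ry12, and no UMI of Gdf10, a gene of Bergmann glia. It also had to hold more of the 6 genes Mfge8, Lhx2, Rorb, Grin2c, Dclk1 and Fjx1 than of the 6 genes Agt, Slc6a11, Itih3, Spon1, Igsf1 and Sfrp5. Of 2385 cells with enough astrocyte genes, 2171 passed the limit on other genes and 1982 of these lacked Gdf10. The 1982 cells split into 907 members, 760 cells with the opposite balance (Agt-type astrocytes) and 315 with equal numbers, of which 80 had 0 of both sets.

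Astrocytes take up glutamate and GABA, buffer potassium, supply neurons with metabolites and secrete proteins that act on synapses. They keep features of the brain region in which they were born, so that astrocytes of the telencephalon (cortex, hippocampus, striatum and olfactory bulb) differ in their genes from those of the diencephalon, brainstem and spinal cord. Transcription factors that pattern the early neural tube, such as the Emx family in the telencephalon and the Irx family behind it, remain expressed in many of these cells.

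The cells came from the whole brain of each of 4 mice, C57BL/6J males aged 90 days after birth, with 1 library per mouse made with 10x Genomics 3′ version 2 chemistry. All brains were dissociated enzymatically at 37 °C, and none was sorted. In 2 animals no inhibitor was present. In the other 2, the transcription inhibitors actinomycin D and triptolide were present during perfusion, dissection and digestion, and the translation inhibitor anisomycin was added for dissection and digestion. The comparison asks whether RNA made during dissociation is seen in these astrocytes. As whole brains were used, the region of each cell is known only from its genes.

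Members numbered 204 and 290 without inhibitors and 196 and 217 with inhibitors, and values per animal are given in this order throughout. Their summed UMIs were 430771, 644148, 467905 and 414503. Median UMIs per member were 1819.5, 1782.5, 2012 and 1533, and levels are given as CPM, the UMIs of a gene per 1000000 UMIs of the summed cells. A gene with 1 UMI in the smallest sum stood at 2.41 CPM. No barcode was shared between libraries among the members. Between 6 and 10 were shared by each pair of libraries over all kept cells.

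Libraries and cells that stood apart are described before any comparison. The second library without inhibitors stood apart from the other 3. Its summed member counts differed from theirs with a chi-square of 3.01 to 3.08 per degree of freedom, against 1.72 to 2.01 between the other libraries. This measure adds up all genes and grows with their counts, and that library also had the largest sum. A few abundant genes can carry much of it, so it does not show a difference spread over many genes. Ttr, the transthyretin gene of the choroid plexus, was at 6228, 25791, 3323 and 3288 CPM in the members, highest in that library. Ttr had a UMI in 98.7% of members, and also in 97.5% of microglia-type cells (median 1395.5 UMIs per cell) and 97.9% of endothelial-type cells (median 1839), which should not express it. The second library with inhibitors held the most haemoglobin RNA, with 3252 CPM summed over 6 erythrocyte genes against 216 to 567 in the others. In addition, 144 members (15.9%) carried at least 4 markers of another cell type, 26, 45, 36 and 37 per animal: 40 cells with ependymal markers, 36 with oligodendrocyte, 29 with microglial, 19 with choroid plexus, 15 each with neuronal and endothelial and 12 with meningeal fibroblast markers, some cells counting under more than 1 list. A doublet score marked 19 members. Results are therefore also given for the 178, 245, 160 and 180 members without such markers, called the stricter set below, of which 2 of the marker lists were chosen after results had been seen. Without these cells the choroid plexus markers summed to 2631, 3842, 2046 and 3966 CPM.

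The genes used in the selection show what was chosen, and are a description only. Slc1a2, the main glutamate transporter of astrocytes (GLT-1), was at 4413, 3861, 4071 and 4470 CPM in members and at 2284 ± 215 CPM (mean ± SD, n = 4 animals) in Agt-type cells. Mfge8, a secreted protein that tags cells for engulfment, was at 1521 ± 203 against 409 ± 43.1 CPM, and Lhx2, a LIM homeobox factor of the forebrain, at 152 ± 28.4 against 3.49 ± 6.98 CPM. Rorb, a nuclear receptor, was at 428 ± 28.0 against 164 ± 33.5 CPM and Grin2c, an NMDA receptor subunit, at 367 ± 56.6 against 97.7 ± 7.28 CPM. In the opposite direction, Agt (angiotensinogen) was at 107 ± 49.7 against 1071 ± 43.0 CPM. Slc6a11, the GABA transporter GAT-3, was at 750 ± 130 against 2650 ± 172 CPM and had a UMI in 59.3% of members, so it was lower but not absent. Markers of astrocytes outside the selection were present in the members of every animal: Slc1a3 at 2355 to 3182 CPM, Aldoc at 2727 to 3409 CPM, Sox9 at 441 to 650 CPM and Aldh1l1 at 124 to 186 CPM. Slc1a3 was at 244 CPM in microglia-type and 29.8 CPM in endothelial-type cells.

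The label was checked against regional transcription factors that played no part in the selection. Over all members most of the telencephalic factors followed it, and part of the other-region factors did. All of these comparisons between types rest on how the cells were chosen, so they carry no test. Emx2, a homeobox factor of the dorsal telencephalon (GRCm38 chr19:59458372-59465357, plus strand), was at 51.1, 29.5, 36.3 and 43.4 CPM in members and at 5.52, 2.57, 0 and 14.0 CPM in Agt-type cells of the same animals. The lowest member value lay above the highest Agt-type value. Nr2e1, the orphan receptor Tailless of forebrain progenitors, was at 60.8 ± 21.3 against 16.1 ± 6.48 CPM. It had a UMI in 11.6% of members and 2.63% of Agt-type cells, or in 5.54% and 1.76% when every cell was thinned to 1000 UMIs. In microglia-type and endothelial-type cells the share was 0.0325% and 0.176%.

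Of 5 telencephalic factors reported here, 4 were higher in members in all 4 animals. Besides Emx2 and Nr2e1, Dmrta2, a cortical patterning factor, was at 26.7 ± 7.19 against 5.38 ± 4.56 CPM and Otx1 at 27.0 ± 9.01 against 15.2 ± 11.9 CPM. Emx1 did not exceed 4.83 CPM in any animal.

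Of the 15 factors of other regions, Irx1, Irx2, Irx3, Irx5, Pax3 and En1 were lower in members in all 4 animals. Irx2, an Iroquois homeobox factor expressed behind the telencephalon (chr13:72628820-72634198, plus strand), had the widest gap, at 2.93 ± 2.22 CPM in members and 34.6 ± 9.48 CPM in Agt-type cells. Irx3 was at 7.72 ± 5.95 against 33.0 ± 6.77 CPM. Pax3, of the dorsal neural tube, was at 3.42 ± 1.22 against 23.9 ± 5.28 CPM and En1, of the midbrain and hindbrain, at 5.18 ± 1.21 against 19.2 ± 5.72 CPM. Tcf7l2, a Wnt pathway factor prominent in the thalamus, overlapped between types, with 109 to 133 CPM in members and 127 to 168 CPM in Agt-type cells. Otx2 had a UMI in 2.32% of members and 3.42% of Agt-type cells. En2, Pax7, Lmx1b and the Hox genes had a UMI in at most 0.331% of either type, so they say nothing about the label.

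**Figure D1:**
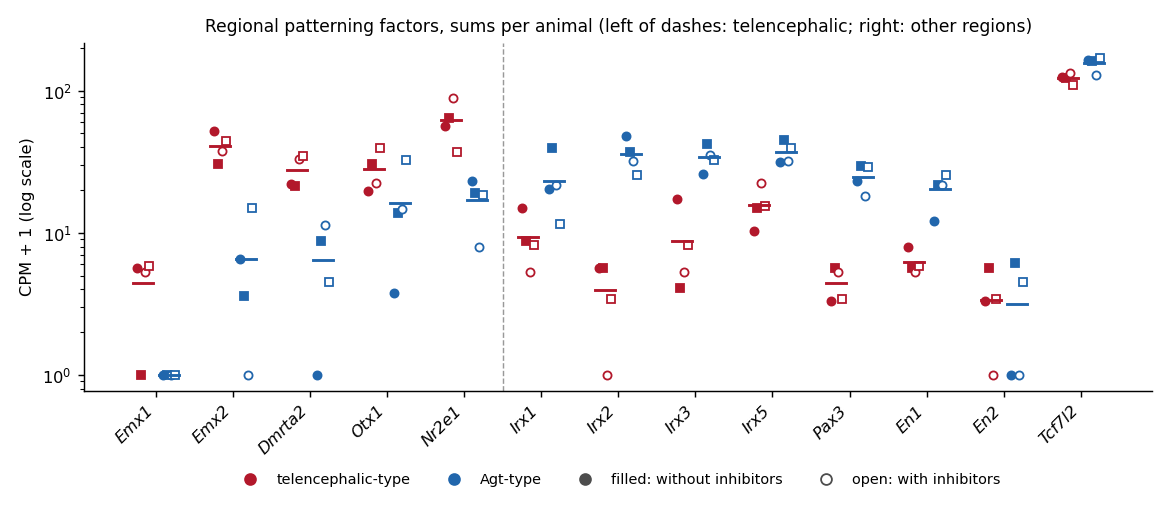
CPM + 1 (log axis) of 13 regional transcription factors, summed per animal, in telencephalic-type (red) and Agt-type astrocytes (blue), with lines at the means and open symbols for animals with inhibitors. Emx2 sits at 29.5 to 51.1 CPM in members and at or below 14.0 CPM in Agt-type cells, while Irx2 stays at or below 4.66 CPM in members and between 24.4 and 46.9 CPM in Agt-type cells.

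The members were not uniform in this respect. With the number of detected forebrain genes minus Agt-type genes as a margin, 246 members had a margin of 1, 241 of 2, 208 of 3 and 212 of 4 or more. Just outside the limit, the 315 cells with a margin of 0 had a median of 1599 UMIs, 44.7 ± 29.8 CPM summed over the 5 telencephalic factors and 285 ± 32.9 CPM over the 15 other-region factors (n = 4 animals). Just inside, the 246 cells with a margin of 1 had a median of 1625 UMIs, and 91.9 ± 40.5 and 255 ± 65.8 CPM of these sums. At a margin of 2 the telencephalic sum was 155 ± 72.9 CPM and the other-region sum 180 ± 77.8 CPM, and at 4 or more they were 246 ± 29.4 and 142 ± 30.4 CPM. The SDs at margins of 0 and 1 overlapped for both sums. As the lists differ in size, each sum is compared along the margin and not with the other. Tcf7l2, at 109 to 133 CPM over all members, made up a large part of the other-region sum and overlapped between types. That list also holds Otx2, which was used here as a choroid plexus marker too. Median depth also differed along the margin, with 1419.5 UMIs at −3 or less and 1955.5 at 4 or more, and its part in the levels was not tested.

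**Figure D2:**
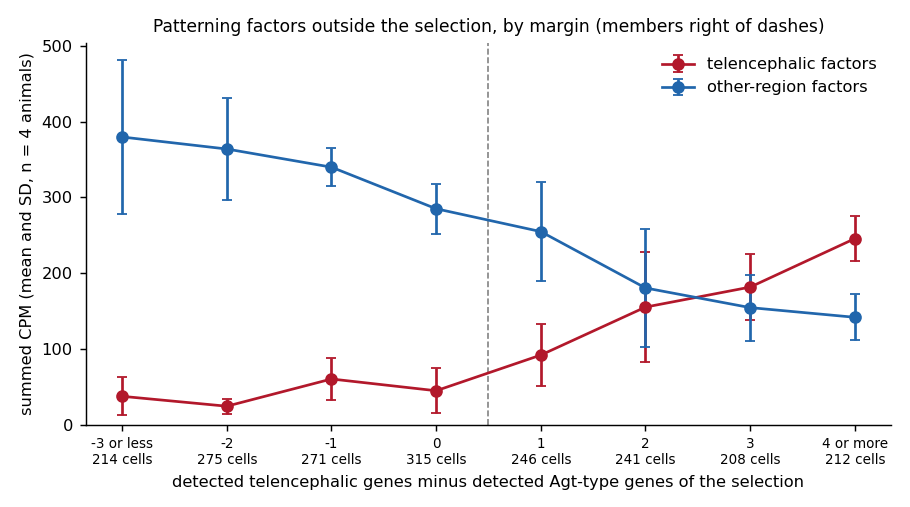
Summed CPM of the 5 telencephalic (red) and 15 other-region (blue) transcription factors against the margin of detected selection genes (points and bars: mean and SD over 4 animals), with members to the right of the dashed line. At a margin of 1 the means are 91.9 and 255 CPM, and at 4 or more they are 246 and 142 CPM. Tcf7l2 makes up a large part of the other-region sum in members.

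Beyond these factors, 3604 genes outside the selection had a mean of at least 50 CPM in either type, and 694 of them (19.3%) were higher and 539 (15%) lower in members than in Agt-type cells of the same animal in all 4 animals. In the stricter set these were 657 (19.2%) and 534 (15.6%) of 3415. The genes with the largest ratios were chosen by rank and are given without a test. Crym, a thyroid hormone-binding crystallin, was at 188, 183, 180 and 38.6 CPM in members against 5.46 ± 5.44 CPM, so 1 animal with inhibitors was well below the other 3. Only 68 members had a UMI of Crym, and 44.5% of its member UMIs lay in 10 cells. Chrdl1, a secreted protein known to drive synapse maturation, was at 67.3, 38.8, 96.2 and 60.3 CPM against 3.74 ± 3.08 CPM. Hapln1, which links hyaluronan and proteoglycans in the matrix around neurons (chr13:89539796-89611652, plus strand), was at 95.2, 109, 85.5 and 106 CPM against 12.2 ± 6.85 CPM.

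Ppp1r3g, a glycogen-targeting subunit of protein phosphatase 1, was at 97.5 ± 19.2 against 16.4 ± 15.2 CPM. Fam13c was at 92.1 ± 16.2 against 6.48 ± 7.75 CPM, but it also had a UMI in 29.9% of endothelial-type cells against 17.2% of members, and the part of endothelial RNA in its level was not tested. In the stricter set Adam23, Lypd6, Dkk3, Pde10a and Nupr1 joined the first 10. Nupr1 had a UMI in 11.1% of members and 3.42% of Agt-type cells, but also in 11.6% of microglia-type and 18.0% of Gdf10-positive cells. Dkk3, a secreted Dickkopf family protein, was at 116, 149, 152 and 133 CPM in all members against 24.8, 30.9, 31.0 and 20.9 CPM in Agt-type cells, with no overlap. Pde10a, a cyclic nucleotide phosphodiesterase known from striatal neurons, was at 64.3 ± 18.2 against 10.1 ± 7.76 CPM.

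Some of the largest ratios came from few cells. In Igfbp6, Nov, Mgp, Snhg11 and Slc4a10, between 82.9% and 96.7% of all member UMIs lay in 10 cells. Mgp, a matrix protein of vessels and fibroblasts, was at 409 ± 202 CPM in members and 21.3 ± 7.39 CPM in Agt-type cells, a mean log2 ratio of 4.08. Without the cells carrying markers of another type its log2 ratio was −1.42, and that of Nov changed from 4.71 to −0.47. Nov is itself among the meningeal fibroblast markers used to remove cells, so its fall was built into the removal.

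Among genes that were lower in members, Slc6a9, the glycine transporter GlyT1, was at 99.8, 63.6, 109 and 113 CPM in members and at 399 ± 30.8 CPM in Agt-type cells. Gria1, an AMPA receptor subunit, was at 39.9 ± 13.3 against 194 ± 41.4 CPM, and Nkx6-2, a homeobox factor of the ventral neural tube, at 28.1 ± 0.548 against 147 ± 36.7 CPM. Cd38, an enzyme that consumes NAD, was at 46.8 ± 6.06 against 197 ± 36.5 CPM. Cyp26b1, which degrades retinoic acid, was at 15.5 ± 6.94 against 57.5 ± 17.1 CPM and Gli1, an effector of hedgehog signalling, at 5.93 ± 5.39 against 44.3 ± 20.8 CPM. B230323A14Rik, an antisense transcript of chromosome 9, was at 6.70 ± 4.58 against 59.2 ± 16.4 CPM. These levels come from few molecules, as 12 members had a UMI of B230323A14Rik and 44 one of Nkx6-2. Adra2a, the alpha-2A adrenergic receptor, was at 19.6 ± 10.5 against 68.0 ± 24.4 CPM.

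The counts of the gene lists that follow stand beside 19.3% higher and 15% lower over all 3604 genes, and nothing is read from them as particular to a list. Of the 16 genes of glutamate and GABA handling with at least 50 CPM outside the selection, 5 were higher and 6 lower in members in all 4 animals (6 and 6 in the stricter set), and the median log2 ratio was −0.03 (0.04 over all genes). Among those that were higher, Grm3, the metabotropic glutamate receptor of mature astrocytes, was at 142, 160, 167 and 130 CPM against 48.6 ± 17.4 CPM. The transporter Slc1a3 (GLAST) was at 2852 ± 360 against 1772 ± 162 CPM and Glul, glutamine synthetase, at 2770 ± 171 against 1962 ± 137 CPM. Gria2, an AMPA receptor subunit, was at 903 ± 160 against 627 ± 41.9 CPM.

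Among those that were lower, the glycine transporter Slc6a9 was named above. Gabbr2, a subunit of the GABA-B receptor, was at 59.0 ± 8.89 against 125 ± 5.71 CPM and Abat, which breaks GABA down, at 119 ± 11.1 against 183 ± 19.3 CPM. Slc7a10, a carrier of glycine and D-serine, was at 514 ± 49.1 against 769 ± 91.0 CPM.

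Of 9 potassium, water and gap junction genes, 3 were higher and 3 lower in all 4 animals, and the counts were the same in the stricter set. Kcnk1, a potassium leak channel, was at 339, 368, 316 and 359 CPM against 196 ± 24.1 CPM and the membrane scaffold Slc9a3r1 at 318 ± 41.1 against 162 ± 34.7 CPM. Kcnj10, the inward rectifier that clears potassium around synapses, was at 202, 161, 235 and 234 CPM in members and at 455, 517, 482 and 625 CPM in Agt-type cells. Kcnj16, a partner subunit of that channel, was at 68.9 ± 16.9 against 108 ± 17.1 CPM. Aqp4, the water channel of astrocyte endfeet and one of the selection genes common to both types, was at 587 ± 52.3 against 901 ± 134 CPM.

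Of 13 genes of surface receptors and signalling, 3 were higher and 3 lower, against 2 and 6 of 14 in the stricter set. S1pr1, a receptor for sphingosine 1-phosphate, was at 1117 ± 135 against 740 ± 130 CPM and Plpp3, which dephosphorylates such lipids, at 2197 ± 150 against 1686 ± 137 CPM. Ednrb, the endothelin B receptor, was at 275 ± 38.8 against 535 ± 36.5 CPM, and the adenosine receptor Adora1 at 41.3 ± 6.67 against 75.2 ± 5.38 CPM. Ntrk2 (TrkB), the receptor of BDNF, differed less, at 1070 ± 17.1 against 1261 ± 108 CPM.

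Among 19 genes of secreted, matrix and synapse-acting proteins, 8 were higher and 4 lower in all 4 animals (median log2 ratio 0.29), and 11 and 3 in the stricter set. Besides Chrdl1 and Hapln1, Mertk, a receptor used by astrocytes to engulf synapses, was at 255, 199, 233 and 256 CPM against 106 ± 28.0 CPM. Clu, the chaperone clusterin, was at 3507 ± 188 against 2317 ± 344 CPM and Ncan, the proteoglycan neurocan, at 247 ± 20.5 against 182 ± 9.75 CPM. Sparc and Sparcl1, a pair of related matrix proteins with opposite known actions on synapse formation, were both lower: Sparc at 425 ± 28.3 against 1282 ± 126 CPM and Sparcl1 at 1879 ± 211 against 3039 ± 92.0 CPM. Apoe overlapped (12145 ± 718 against 12632 ± 1700 CPM).

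Of 17 genes of glucose, serine and energy metabolism, 6 were higher and 2 lower in all 4 animals (7 and 3 in the stricter set). Of 12 genes of metal and redox protection, 6 were higher and 1 lower (7 and 1 of 11 in the stricter set). Phgdh and Psph, enzymes of serine synthesis, were at 341 ± 9.29 against 188 ± 24.6 CPM and at 110 ± 14.5 against 70.0 ± 10.1 CPM. Dio2, which activates thyroid hormone, was at 125, 129, 128 and 113 CPM against 38.4 ± 14.1 CPM. Gstm5, a glutathione transferase, was at 971 ± 80.4 against 422 ± 98.3 CPM and Prdx6, a peroxiredoxin, at 1172 ± 102 against 838 ± 67.8 CPM. Aldoc, a glycolytic aldolase, differed less, at 3185 ± 310 against 2626 ± 273 CPM.

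Of 16 glial transcription factors, 2 were higher and 1 lower in all 4 animals (median log2 ratio 0.06), against 6 and 1 of 15 in the stricter set (median 0.25). Pax6, a factor of cortical progenitors, was at 116, 94.7, 124 and 130 CPM against 38.6, 77.2, 34.4 and 41.9 CPM. Id4, an inhibitor of helix-loop-helix factors, was at 863 ± 71.3 against 418 ± 104 CPM. Sox9 (511 ± 94.0 against 458 ± 79.7 CPM) and Zbtb20 (1133 ± 120 against 1091 ± 167 CPM) overlapped.

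Genes commonly used for grey matter astrocytes did not move one way, with 3 higher and 5 lower of 12 (4 and 6 in the stricter set). Eogt, a sugar transferase of the endoplasmic reticulum, was at 62.6 ± 6.01 CPM against 13.8, 12.9, 6.88 and 10.5 CPM, while endothelial-type cells held 236 CPM. Igfbp2 was at 346 ± 35.7 against 205 ± 42.9 CPM. Etnppl, which degrades phosphoethanolamine, was lower at 213 ± 43.4 against 534 ± 47.4 CPM. Lgi1, a secreted synaptic organizer, was at 134 ± 15.1 against 299 ± 18.3 CPM and Paqr6 at 62.4 ± 18.2 against 216 ± 38.9 CPM. Gfap, the filament protein of white matter, border and reactive astrocytes, was low in both types (67.6 ± 22.2 against 89.8 ± 38.8 CPM) and overlapped.

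**Figure D3:**
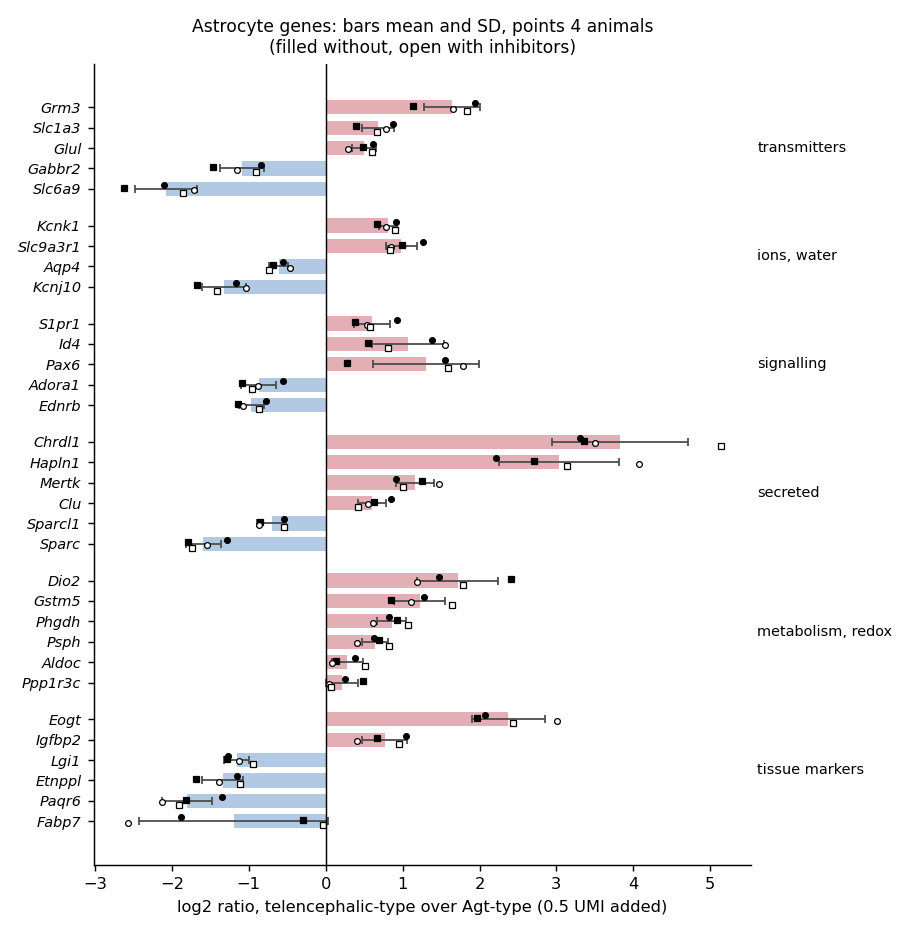
Log2 ratio of telencephalic-type over Agt-type astrocytes for 32 genes in 6 classes (bars: mean, whiskers: SD, points: the 4 animals, filled without and open with inhibitors). Grm3 lies right of 0 in every animal, Slc6a9 and Kcnj10 lie left of 0 in every animal, and the 4 values of Fabp7 spread from near 0 to below −2.

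Against the 189 Gdf10-positive astrocytes, whose median depth was 2449 UMIs, 514 of 3914 genes (13.1%) were higher and 1023 (26.1%) lower in members in all 4 animals. Emx2 was higher in members in all 4 animals (40.1 ± 9.27 against a mean of 9.79 CPM), as were Mertk (236 against 144 CPM) and Dio2 (124 against 71.9 CPM). Genes named above for large ratios over Agt-type cells were also found in Gdf10-positive cells, so their presence is not particular to members. With cells thinned as for Nr2e1, Dkk3 had a UMI in 12.8% of members and 11.4% of Gdf10-positive cells. Hapln1 was at 10.5% and 7.61% and Chrdl1 at 6.90% and 4.35%. The gap was wider for Fam13c (11.1% and 5.98%) and Crym (6.77% and 2.17%). Slc1a3 was at a mean of 3802 CPM in the Gdf10-positive cells and was higher in members in 1 animal only. Mgp stood at 4334 CPM in the Gdf10-positive cells, whose makeup was not examined further.

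Clustering of the members alone gave 6 groups, whose leading genes describe how the groups were made. Group 1 held 558 members (61.5%), led by Oaf, St6galnac5, Fam13c, Chst2 and Hbb-bs. Hbb-bs, a haemoglobin gene, was at 797 against 188 CPM in the other members. It had a UMI in 34.6% of the group's cells and 33.5% of the others. In group 1 the 5 telencephalic factors summed to 220.3 CPM and the other-region factors to 160 CPM, and 5.38% of its cells carried markers of another type. Group 2 held 138 members (15.2%), led by A330076C08Rik, Agt, Gria1, Slc6a9 and Cd38, genes that were also lower in members than in Agt-type cells. Its telencephalic factors summed to 48.4 CPM and its other-region factors to 329 CPM, its Agt level was 581 CPM, and its mean margin was 1.49 against 2.91 in group 1. For these 138 cells the regional factors did not follow the label, and their sums were nearer to those of cells with a margin of 0 than to those of group 1.

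Group 3 (94 cells) was led by Enpp2, Slc38a2, Ttr, 6330403K07Rik and Tmsb10, had 44519 CPM of Ttr, and 37.2% of its cells carried markers of another type. Group 4 (54 cells), with a median of 795.5 UMIs, was led by Ctss, Tyrobp and C1qb, genes of microglia, followed by Mrpl17 and Efhd2. Group 5 (39 cells) was led by Gm10714, Dmkn, Sntn, Cfap77 and Stoml3, and Sntn and Cfap77 are genes of motile cilia. All 39 of its cells carried markers of another type, and its Slc1a2 level was 259 CPM against 5945 CPM in group 1. Group 6 (24 cells) was led by Pak7, Neurod2, Trank1, C78859 and Galnt6 and had 1049 CPM of the synaptic vesicle gene Syt1.

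The groups were present in each animal. Group 1 took 61.8%, 61.0%, 57.7% and 65.4% of the members, and group 2 took 15.2%, 13.8%, 15.3% and 17.1%. Group 3 ranged from 5.07% in the second animal with inhibitors to 13.4% in the second animal without them. Group 5 took 3.43%, 3.10%, 8.16% and 3.23%, with 16 of its 39 cells in the first animal with inhibitors. At a coarser resolution of 0.25 there were 4 groups, and at 1 there were 10.

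**Figure D4:**
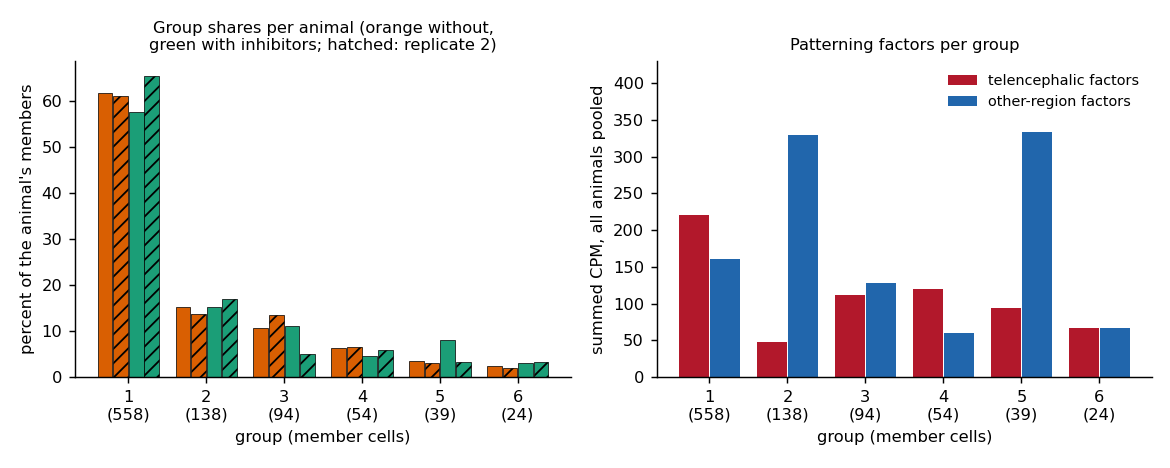
Left, percent of each animal's members in the 6 groups (orange without, green with inhibitors, hatched for replicate 2); right, summed CPM of telencephalic (red) and other-region (blue) factors in each group, all animals pooled. Group 1 holds 57.7% to 65.4% of members in every animal and 220.3 and 160 CPM of the factors, whereas group 2 holds 48.4 and 329 CPM.

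With 2 animals in each group, no test of the share of members could pass. Telencephalic-type astrocytes were 9.08% (95% Wilson interval 7.96 to 10.3) and 10.3% (9.22 to 11.5) of kept cells without inhibitors, and 9.22% (8.07 to 10.5) and 7.55% (6.64 to 8.57) with inhibitors. The intervals cover counting error only. The groups overlapped, with a difference of 1.30 percentage points (exact two-sided permutation test, n = 2 each, p = 0.667, where 0.333 is the smallest p that 2 against 2 animals allow). In the stricter set the shares, 7.92% and 8.69% without and 7.53% and 6.26% with inhibitors, did not overlap (exact two-sided permutation test, p = 0.333), and this held in 6 of 7 alternative choices of cells. Among members and Agt-type cells together, members were 50.1% and 55.1% without inhibitors and 57.0% and 55.6% with them. These shares did not overlap (difference −3.68 points, exact two-sided permutation test, n = 2 each, p = 0.333), but they did in the stricter set (50% and 53.5% against 55.9% and 53.1%).

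No gene passed the test for an inhibitor effect in these astrocytes. Of 6919 genes tested with edgeR's quasi-likelihood test on the sums per animal, 0 were higher (0%) and 0 lower (0%) without inhibitors when a call needed both an adjusted p (Benjamini-Hochberg) below 0.05 and a log2 fold change beyond 0.58 either way. The smallest adjusted p was 0.46. At an unadjusted p under 0.05 there were 280 genes (4.05%), 123 higher (1.78%) and 157 lower (2.27%). DESeq2 called 0 of 16267 genes, of which 33 had an unadjusted p under 0.05. The groups did not overlap for 2223 genes (32.1%). The count of 0 did not hold when an animal was left out: 32 genes passed without the first and 32 without the second animal without inhibitors, and 6 and 32 without the first and the second animal with inhibitors. Such fits leave 1 animal in a group, which is then assumed to vary like the others. It was also 13 when cells with markers of another type were removed by the lists fixed first, and 0 with the 2 added lists. Log2 fold changes are positive where the level was higher without inhibitors, and are given with their standard error (SE).

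Among abundant astrocyte genes outside the selection, Glul had a log2 fold change of 0.01 (SE 0.14), Clu of 0.03 (SE 0.14) and Slc1a3 of −0.14 (SE 0.15). Others exceeded their SE without passing the test, with Apoe at 0.15 (SE 0.12), Mt1 at −0.18 (SE 0.13) and Mt3 at −0.19 (SE 0.13). Over the lists, the median was −0.03 for the 17 tested genes of transmitter handling, 0.01 for the 20 secreted genes and −0.09 for the 14 metal and redox genes, against 0.00 for all tested genes. In the stricter set these medians were −0.14, −0.03 and −0.16, and 3 of 17, 2 of 19 and 2 of 12 genes had an unadjusted p under 0.05 as lower without inhibitors (146 of 5037 over all genes), against 0 of each list when all members were used. Slc1a3 was 1 of them, at −0.18 (SE 0.09, edgeR adjusted p = 0.934). The selection genes decided which cells were members, so their levels are not read as a test. Mfge8 was at 1527, 1475, 1295 and 1785 CPM.

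Early response genes, which cells switch on within minutes of a stimulus, were low in the members of both groups. Fos had 32.5, 15.5, 6.41 and 12.1 CPM, from 14, 10, 3 and 5 UMIs. Its groups did not overlap, but it was too low to be tested. Jun had 53.4, 68.3, 55.6 and 50.7 CPM (log2 fold change 0.24, SE 0.30) and Dusp1, a phosphatase that shuts off MAP kinases, 39.5, 52.8, 38.5 and 45.8 CPM (0.18, SE 0.34). Jun and Dusp1 overlapped between groups. Junb had 11.6, 20.2, 6.41 and 2.41 CPM from 5, 13, 3 and 1 UMIs, without overlap, and Zfp36, Egr1 and Hspa1a each had at most 14 UMIs in any animal. Of 33 early genes 14 were tested and 0 passed, with a median log2 fold change of 0.12, and it was −0.03 in the stricter set. Of 15 chaperone genes 13 were tested and 0 passed (median 0.05).

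Summed over the 25 genes that the study lists as a consensus of activation, members thinned to 1000 UMIs held 1.35, 1.92, 1.78 and 1.65 UMIs per cell. The group means, 1.63 ± 0.398 without and 1.72 ± 0.0942 with inhibitors, differed by −0.08 (exact two-sided permutation test, n = 2 each, p = 1.0). A total of 95 members below 1000 UMIs were left out. Hsp90aa1, at 608, 1068, 1088 and 972 CPM, and Hist1h2bc, at 490, 643, 586 and 468 CPM, were the highest of the tested list members. The sum therefore rests mostly on them and says little about Fos and the other low genes. Of the 25 genes 11 were tested and 0 passed, with a median log2 fold change of −0.10. For 3 of the 11 the groups did not overlap, against 32.1% over all tested genes. Hist1h1c, a histone gene of the list, was at 162, 180, 120 and 106 CPM from 70, 116, 56 and 44 UMIs, without overlap (0.63, SE 0.21). A second list of 19 genes, which the study chose on these same libraries and which is therefore no independent evidence, gave 0.321, 0.413, 0.282 and 0.318 UMIs per cell. The sign of the first difference turned in the stricter set (0.11) and without the first animal without inhibitors (0.20).

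The same genes were set against microglia-type cells of the same animals, 3080 cells with at least 3 of 6 microglial genes and at most 1 of the 7 astrocyte genes. This comparison was added after the data had been seen. In microglia-type cells Fos was at 749 and 412 CPM without and 5.04 and 2.47 CPM with inhibitors, and Jun at 1724 and 1095 against 139 and 96.3 CPM. The inhibitor effect itself was tested for a difference between both cell types in 1 model with the animal as a block. Of 10507 genes, 11 had a lower log2 fold change in the members (0.105%) and 0 a higher one (0%) by edgeR's quasi-likelihood test. They were Fos, Jun, Jund, Egr1, Dusp1, Hspa1a, Hspa1b, Hist1h1c, Hist1h4i, Hist1h4d and Cd24a. Fos, Egr1, Hspa1a, Hspa1b and Hist1h4d had at most 14 UMIs in the members of any animal and were too low to be tested there, so they entered only through microglia-type cells. Their levels are a description, and no p is given. For Jun the difference was −3.35 (SE 0.35). For Dusp1 it was −4.68 (SE 0.45) and for Jund, at 137, 169, 220 and 145 CPM in members, −2.22 (SE 0.27). For Hist1h1c it was −1.72 (SE 0.28), with a higher level without inhibitors in both cell types (log2 fold change 2.34, SE 0.16, in microglia-type cells). For Hist1h4i it was −2.55 (SE 0.56). That gene had at most 25.7 CPM in microglia-type cells and stood at 25.5, 55.9, 34.2 and 77.2 CPM in members.

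Not every early gene passed. Junb was at 1357 and 1059 against 256 and 216 CPM in microglia-type cells, but its difference was −0.51 (SE 0.82), and Zfp36 and Btg2 did not pass either. Members had at most 13 UMIs of Junb and 9 of Zfp36 in any animal, too few to be tested there. Both genes thus also entered only through microglia-type cells, and nothing is read from their differences. Cd24a, a surface gene of progenitor and ependymal cells, was too low to be tested in microglia-type cells alone, with at most 24.2 CPM, and was at 81.2, 121, 216 and 130 CPM in members, where ependymal markers summed to 843, 1226, 1673 and 1337 CPM. The part of ependymal RNA in that result was not tested. In microglia-type cells alone, 31 genes passed as higher and 2 as lower of 8792, while Fos, Jun and Egr1 did not pass there (log2 fold changes 7.32, 3.64 and 4.12, edgeR adjusted p = 0.571, 0.432 and 0.889). In the stricter set of members 9 of 9474 genes passed, all lower in the members, and DESeq2 called 6. Without the first or the second animal without inhibitors, 25 and 23 genes passed, of which 7 and 6 were higher in members. Dusp1, Jun and Jund passed under each of these settings. Fos did not without the second animal with inhibitors, nor Egr1 in the stricter set. Hist1h4d had 0 UMIs in microglia-type cells with inhibitors, so its fitted difference depends on the prior count.

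**Figure D5:**
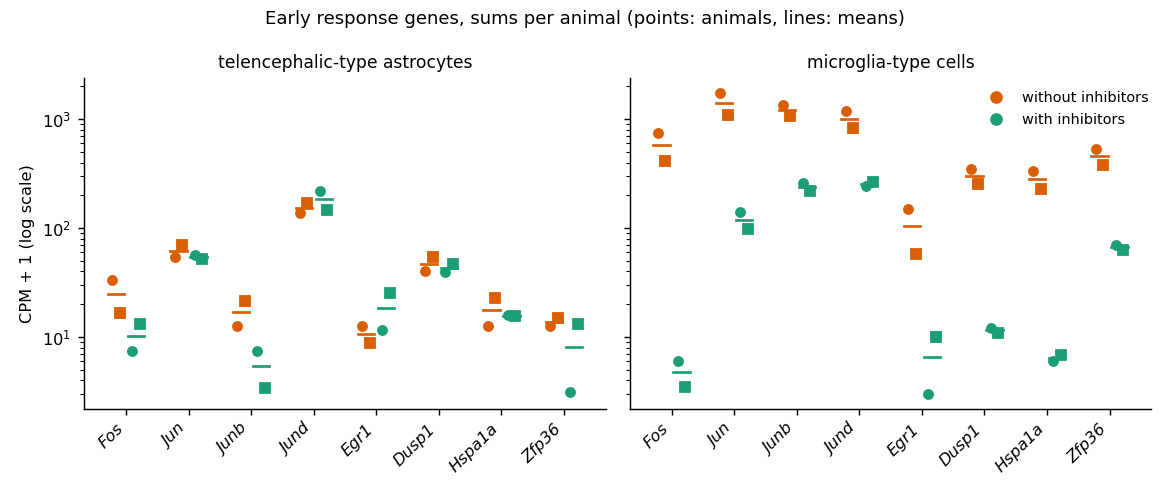
CPM + 1 (log axis) of 8 early response genes in telencephalic-type astrocytes (left) and microglia-type cells (right), per animal without (orange) and with inhibitors (green), with lines at the means. Fos lies between 6.41 and 32.5 CPM in members, and in microglia-type cells at 412 and 749 CPM without and 2.47 and 5.04 CPM with inhibitors.

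Genes with small unadjusted p-values included markers of other cells. Gfap was at 46.4 and 51.2 CPM without and 81.2 and 91.7 CPM with inhibitors, without overlap (log2 fold change −0.79, SE 0.28, edgeR adjusted p = 0.998), and its value was also −0.79 in the stricter set. Vim, another filament gene, was at 77.9 ± 28.1 without and 135 ± 26.9 CPM with inhibitors (n = 2 each), without overlap (−0.73, SE 0.26) and could not be tested in the stricter set. Per3, a clock gene, was at 193 and 168 against 237 and 268 CPM (−0.47, SE 0.19). In the stricter set its value was −0.64 (SE 0.17, edgeR adjusted p = 0.471).

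The smallest p-values belonged to Vtn (85.9 and 154 against 51.3 and 41.0 CPM), a gene of mural cells, and to Gm10714 and Prr18. Gm10714 leads the ciliated group 5, which took 8.16% of members in the first animal with inhibitors. None of these 3 genes passed the low-count filter in the stricter set. Of the 6 tested ependymal markers, 4 had an unadjusted p under 0.05, all lower without inhibitors, against 157 of 6919 genes (2.27%) lower over all. In the stricter set 1 of 6 was left to test. Cells with at least 4 of these same markers had been removed there, so this loss was built into the removal. Mbp, a myelin gene, was at 413 and 473 against 524 and 782 CPM (−0.54, SE 0.20) and at −0.57 in the stricter set, and oligodendrocyte markers still summed to 806 to 1211 CPM there. The haemoglobin genes spread most, with Hba-a1 at 102, 116, 55.6 and 992 CPM, the highest value in the second library with inhibitors. The part of other cells' RNA in these differences was not tested.

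Between telencephalic-type and Agt-type astrocytes, 1 of 7367 genes (0.0136%) differed in its inhibitor effect and 0 (0%) in the other direction. Lyz2, a lysozyme of myeloid cells, was at 4.64 and 14.0 against 36.3 and 21.7 CPM in members and at 13.8 and 170 against 20.7 and 31.4 CPM in Agt-type cells. The difference was −3.45 (SE 0.68, edgeR adjusted p = 0.0411). The Agt-type level was highest in the second animal without inhibitors. In that animal 14 Agt-type cells carried at least 4 microglial markers, against 1 to 3 in the other animals. The part of microglial RNA in this difference was not tested, and the member levels come from few UMIs. Without that animal Lyz2 had a difference of −1.74 (edgeR adjusted p = 1.0) and 9 genes passed. Without the first animal with inhibitors it was −2.78 (edgeR adjusted p = 0.997) and 0 passed, while 9 passed without the first animal without inhibitors and 2 without the second animal with inhibitors. DESeq2 called 1 gene, Hba-a1, and not Lyz2.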

How the data were processed

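The authors deposited UMI counts per gene and barcode, made with Cell Ranger 3.0.0 from reads aligned to mm10 (GRCm38), per the study's methods; the submitters' processing notes also list bcl2fastq and Seurat. Barcodes with at least 400 genes and at most 20% mitochondrial UMIs were kept. Library totals were 5134359 to 7529804 UMIs. Counts were summed per animal and type. The members and gene lists were chosen with earlier results of these data known. Sums were tested with edgeR 4.0.16 (filterByExpr, TMM, robust quasi-likelihood, Benjamini-Hochberg) in R 4.3.3, with DESeq2 1.42.0, the study's tool, as an alternative. Scripts were tested on simulated data. Some genes are not reported here, and sums over telencephalic factors hold the 5 that are. Ratios between types used 0.5 UMI added to each sum. Members were clustered with leidenalg 0.10.2 (2000 variable genes, 20 components, 15 neighbours, resolution 0.5). Doublet scores against simulated doublets, at 0.8% per 1000 barcodes, marked 206 cells, which were kept. Genes named for the inhibitor effect were to be the 10 largest calls, called list members and the 3 highest-expressed members of each list; between types, the 10 largest ratios each way; for groups, 5 leading genes; other list members are named as examples, chosen after their values were seen. The comparison with microglia-type cells, the removal of cells with other markers and 2 of its lists were added after the data were seen. Same-numbered animals' deviations had a correlation of −0.0974 over 3259 genes, so the numbers were not taken as pairs. Each library was 1 animal, so p-values rest on 2 animals in each group.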

Additional observations from a re-analysis of the deposited data

Results flagged for a closer look

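In 9 of 68 named genes, 1 of the 4 animals lay far from the others in the log2 ratio of telencephalic-type over Agt-type astrocytes, with a gap to the nearest animal above Dixon's 95% limit, given here as a part of the whole range. Chance marks about 1 in 20 genes in this way. The gap took 0.887 of the range for Btg1 and 0.843 for Emx1, both through the second animal without inhibitors. It was 0.896 for Cyp26b1 and 0.927 for En1 through the first animal without inhibitors, where their log2 ratios were −0.58 and −0.61. It was 0.871 for Irx2 through the first animal with inhibitors, in which no member held an Irx2 UMI. The second animal with inhibitors was the odd one for Chrdl1 (0.898, with a log2 ratio of 5.14), Dkk3 (0.842), Hr (0.894) and Ucp2 (0.916).

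The inhibitor effect differed between cell types for 12 genes by the test of that difference. Against Agt-type astrocytes it was Lyz2, at −3.45. Against microglia-type cells the differences were −5.93 for Fos, −3.35 for Jun, −2.22 for Jund, −4.99 for Egr1 and −4.68 for Dusp1. They were −5.39 for Hspa1a, −5.60 for Hspa1b, −1.72 for Hist1h1c, −2.55 for Hist1h4i, −8.47 for Hist1h4d and −2.95 for Cd24a. Fos, Egr1, Hspa1a, Hspa1b and Hist1h4d were too low to be tested in the members and entered through microglia-type cells, and Cd24a entered through the members, so these differences support nothing. Hist1h4i was low in microglia-type cells, at no more than 25.7 CPM in any animal.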

How the results depend on the processing

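The count of genes with an inhibitor effect, 0 of 6919, was 11 without a filter on low counts, 4 in cells with none of the 5 other-type genes, 11 with at least 4 of 7 astrocyte genes, 1 at no more than 10% mitochondrial UMIs and 13 without cells carrying other markers. It ranged from 6 to 32 with an animal left out. It stayed at 0 with DESeq2, at least 10 UMIs in every sum, a prior count of 2, a margin of at least 2, doublets removed and the 2 added lists. With the replicate number as a block, 8 genes passed, 4 each way; the pairing is by number only. The difference from Agt-type cells, 1 gene, became 3 without a filter, 0 with at least 10 UMIs, 5 with none of the 5 genes, 0 at a margin of 2, 9 with 4 astrocyte genes, 3 at 10% mitochondrial UMIs, 0 without doublets, 3 without cells carrying other markers and 0 with the added lists, and 0 to 9 with an animal left out. Against microglia-type cells, 11 genes became 6 with DESeq2 and 11 to 25 with an animal left out. The difference in activation UMIs per cell, −0.08, was 0.0668 with the study's own list, 0.0395 at a margin of 2, 0.11 in both removals and 0.0076 at 500 UMIs, and −0.36 to 0.20 with an animal left out. A resolution of 1 gave 10 groups in place of 6. With at least 4 astrocyte genes Hba-a1 and Hbb-bs turned to 1.58 and 1.61, Hbb-bs was between −2.28 and 1.80 with an animal left out, and Meg3 between −0.97 and 0.99. Mgp and Nov turned to −1.42 and −0.47 in the stricter set, where Nov was among the markers used to remove cells. The differences in share kept their sign under each alternative run, although groups that overlapped in 1 set of cells did not in another, with 0.46 to 2.14 and −6.19 to −1.18 points when an animal was left out. The cause of these changes was not tested. Depth limited the test to 6919 genes, and Fos, Junb and Egr1 were too low for it.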
